A study of Mus musculus with 15 samples.

Results

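The genes of the eukaryotic translation initiation factors were followed through the brainstem RNA of 15 libraries, 9 from embryos of 3 Lmx1b genotypes and 6 from newborn mice of 2 AMPK genotypes. A gene was taken when the mouse symbol of its Ensembl identifier began with Eif followed by a digit from 1 to 6, and the 10 rows whose symbols mark a pseudogene (-ps) were left out. This rule found 56 genes among the 57180 identifiers of the count tables. Of these, 53 had enough counts for a test in the embryonic libraries and 52 in the newborn libraries. Eif2c5, an older argonaute symbol that the rule also takes, had 0 counts in every library and was given no role. Eif4e1b, the germline form of the cap-binding protein, had 1 count in 1 of the 15 libraries. Eif4ebp3 had at most 10 counts in any library.

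Translation initiation brings the small ribosomal subunit, the initiator tRNA and the start codon of an mRNA together. The eIF2 complex carries the initiator tRNA and is recharged with GTP by eIF2B, while kinases that phosphorylate eIF2 slow this step under stress. The eIF4F complex, built from the cap-binding eIF4E, the helicase eIF4A and the long scaffold eIF4G, loads the mRNA, and the many-subunit eIF3 bridges eIF4G and the small ribosomal subunit. In neurons, initiation is a main control point of protein synthesis during growth and synaptic change, through the 4E-binding proteins below mTORC1 and through the eIF2 kinases.

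The embryonic groups were Lmx1b+/+ (WT), Lmx1b+/- (HT) and Lmx1b-/- (KO), with 3 libraries each from the brainstem ventilatory centers of prenatal mice. Lmx1b is a LIM homeodomain factor of dorsal and ventral patterning, and its complete loss is lethal to the embryo per the study, so only prenatal tissue could be taken. The newborn groups were AMPK+/+ (WT) and AMPK-/-, which the study describes as mice without the α2 catalytic subunit of AMP-activated protein kinase and their WT littermates, with 3 libraries each. The labels name AMPK but no subunit. Below, the libraries labelled AMPKα2-/- are those with the AMPK knockout label, and the α2 in this name is taken from the study. None of the animals whose libraries are described here was given as treated. The strain, the embryonic age, the sex of the animals, whether animals were pooled and how the alleles were made were not given in the sources used here. The samples are bulk tissue, in which fewer cells of a type and less RNA per cell cannot be told apart. Nothing in the labels said that libraries came from separate animals or pools, so the p-values measure only the spread between these libraries.

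Total counts lay between 28833130 and 37441679 in the embryonic libraries. In the newborn table they lay between 14975095 and 17384171 in 4 libraries, but at 291212 in WT 2 and 335986 in AMPKα2-/- 3, the shallow libraries. A count of 0 allowed up to 9.98 and 9.07 CPM (counts over the scaled library total, in edgeR's unit) in those 2 libraries and at most 0.198 CPM in any other. These limits cover counting error only. Lmx1b itself was at 1.14 ± 0.303 CPM in Lmx1b-/- and 16.1 ± 6.39 CPM in WT (SD, n = 3 each), with no overlap (exact permutation test, two-sided, p = 0.1, which is the lowest value that 3 against 3 libraries allow). In Lmx1b+/- it was at 30.5, 11.9 and 14.3 CPM (mean 18.9 ± 10.2), which overlapped WT at 22.5, 16.0 and 9.73 CPM (exact permutation test, p = 0.7), so its level does not separate this group from WT, and Lmx1b+/- below stands for the libraries with that label. Prkaa2, which encodes AMPKα2, was at 19.9 ± 6.95 CPM in the libraries labelled AMPKα2-/- and at 26.1 ± 3.92 CPM in WT, and these overlapped (exact permutation test, p = 0.3). By library, Prkaa2 was at 25.4, 22.3 and 12.1 CPM in the former and at 21.9, 26.6 and 29.7 CPM in WT. The value of 12.1 CPM rests on 4 counts in the shallow AMPKα2-/- 3, and that of 26.6 CPM on 8 counts in the shallow WT 2. Since this gene did not separate the newborn groups, the name AMPKα2-/- stands only for the knockout label and the subunit that the study gives. A summed level of 9 hindbrain markers, among them Hox genes, lay between 112 and 233 CPM in the embryonic libraries, where 9 forebrain markers summed to 40.2 to 93.2 CPM. In the newborn libraries the same sums were 226 to 355 CPM and 1.26 to 9.98 CPM.

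In Lmx1b+/- brainstem, more initiation factor mRNAs rose than fell against WT. Of the 53 members tested, 28 rose and 4 fell in edgeR's quasi-likelihood test (adjusted p under 0.05), which is 52.8% and 7.55% of them. Over all 21729 genes tested, 36.7% passed, with 19.4% that rose and 17.3% that fell. The members that rose most were subunits of eIF3, Eif3e, Eif3m and Eif3k, together with the β subunit of eIF2, Eif2s2, with log2 fold changes from 1.04 to 1.27. The 4 that fell were the scaffolds Eif4g1 and Eif4g3, the eIF2 kinase gene Eif2ak4 and the translational repressor Eif4ebp2, with log2 fold changes from -0.50 to -0.34. The median log2 fold change was 0.36 over the members and -0.031 over all genes. The members together made up 5567, 5487 and 5754 CPM in the WT libraries, 6897, 6531 and 7292 CPM in Lmx1b+/- and 5821, 6260 and 6019 CPM in Lmx1b-/-. Each Lmx1b+/- sum lay above each WT and each Lmx1b-/- sum. Gene by gene, 38 members had Lmx1b+/- and WT libraries that did not overlap, against 45.3% of all genes, with 31 higher (23.4% of all genes) and 7 lower (21.9% of all genes) in Lmx1b+/-.

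How many members counted as higher or lower depended on how the libraries were scaled. With the library total in place of TMM (a scaling by the trimmed mean of gene ratios), 10 members rose and 7 fell, and the median of all genes moved from -0.031 to -0.27. The median of the members minus that of all genes was 0.391 with TMM and 0.38 with the library total. The 10 that rose in both were Eif3e, Eif3m, Eif3k, Eif3i, Eif3h, Eif2s1, Eif2s2, Eif2a, Eif1a and Eif4a1, and the 4 members that fell with TMM fell with the library total too. No gene of eIF2B, eIF5A or eIF6 was called with the library total. The order of the summed levels depended on the scaling too. TMM factors were 0.966, 1.003 and 1.241 in WT, 0.836, 0.989 and 0.891 in Lmx1b+/- and 1.055, 1.035 and 1.035 in Lmx1b-/-. On the library total, the sum of WT 3 lay above every Lmx1b+/- sum. That of Lmx1b+/- 1 lay below every Lmx1b-/- sum. The library total includes 1 gene with an uneven share, the gene with the most counts. It took 21.92%, 18.45% and 4.555% of the counts in WT 1 to 3. Its share was 13.7% to 22.69% in Lmx1b+/- and 13.85% to 14.97% in Lmx1b-/-. The part of this gene in the order of the sums was not tested. Leaving out 1 library at a time gave between 23 and 30 members that rose and between 2 and 5 that fell, the lowest number of falls without WT 1 and without Lmx1b+/- 3.

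**Figure D1:**
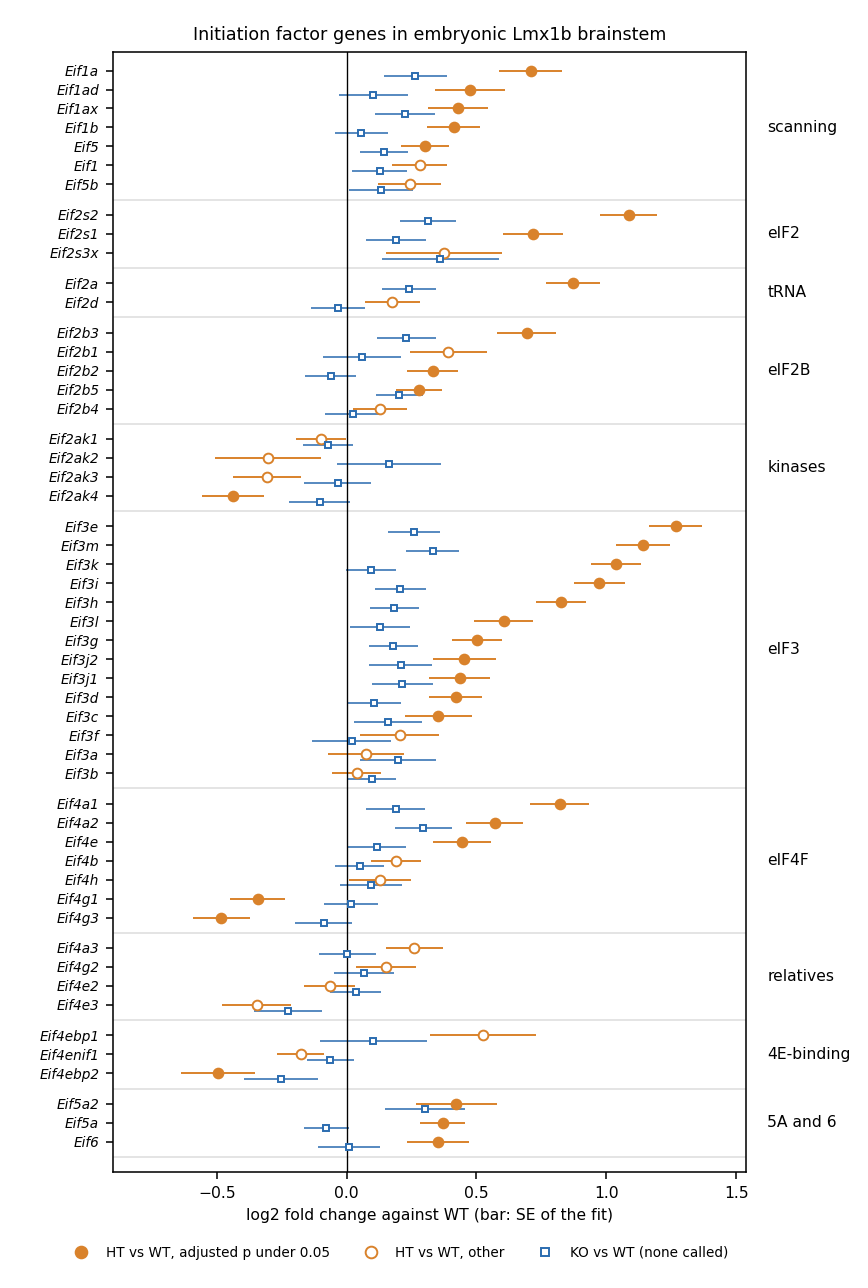
Log2 fold change against WT of each initiation factor gene tested in the embryonic libraries except the Y-linked Eif2s3y, grouped by role, for Lmx1b+/- (HT, circles, filled where adjusted p was under 0.05) and Lmx1b-/- (KO, squares), with bars for the standard error of the fit. Most HT circles lie right of 0, led by Eif3e at 1.27, the kinases lie left of 0, and no KO square was called.

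Among the 14 subunits of eIF3, 11 rose in Lmx1b+/- (5 with the library total as the scaling) and none fell, with a median log2 fold change of 0.478 and a range from 0.0383 to 1.27. Eif3e, a subunit of the lobe of the complex that also holds Eif3k and Eif3l, was measured at 56.0, 59.7 and 64.5 CPM in WT, 142, 129.5 and 162 CPM in Lmx1b+/- and 72.1, 73.9 and 69.7 CPM in Lmx1b-/-. The Lmx1b+/- libraries lay above all 6 others (log2 fold change 1.27, SE 0.10, adjusted p = 3.96e-06). Eif3m, a neighbour of Eif3h and Eif3f in the same complex, was at 22.5, 22.2 and 22.2 CPM in WT, 44.7, 46.8 and 56.2 CPM in Lmx1b+/- and 28.3, 29.3 and 26.6 CPM in Lmx1b-/-. Its Lmx1b+/- values again lay above the other groups (log2 fold change 1.14, SE 0.10, adjusted p = 6.83e-06). Eif3k, the smallest of the 14 by coding length, was at 59.1, 54.5 and 59.1 CPM in WT, 121, 104 and 129 CPM in Lmx1b+/- and 63.0, 62.4 and 58.9 CPM in Lmx1b-/-, with each Lmx1b+/- library above the rest (log2 fold change 1.04, SE 0.10, adjusted p = 8.67e-06). Reads of Eif3e may be shared with its processed pseudogenes, of which Eif3s6-ps1 and Eif3s6-ps2 were at 7.67 to 26 CPM in these libraries.

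Eif3i, a propeller-shaped subunit, was measured at 56.0, 54.7 and 58.4 CPM in WT, 108, 98.7 and 125 CPM in Lmx1b+/- and 64.9, 67.7 and 62.7 CPM in Lmx1b-/-. Eif3h, which had the highest level per length of the subunits, was at 83.8, 89.1 and 89.9 CPM in WT, 166, 138 and 163 CPM in Lmx1b+/- and 96.6, 103 and 98.6 CPM in Lmx1b-/-. Both genes were higher in every Lmx1b+/- library than in any other, Eif3i (log2 fold change 0.97, SE 0.10, adjusted p = 1.30e-05) as well as Eif3h (log2 fold change 0.83, SE 0.10, adjusted p = 3.74e-05). Eif3l was at 85.6, 97.8 and 105 CPM in WT, 158, 123 and 157 CPM in Lmx1b+/- and 106, 109 and 101 CPM in Lmx1b-/- and rose in Lmx1b+/- (log2 fold change 0.60, adjusted p = 0.00128). Eif3g, an RNA-binding subunit, was at 43.6, 38.7 and 44.7 CPM in WT, 63.2, 56.3 and 60.4 CPM in Lmx1b+/- and 45.1, 51.5 and 47.4 CPM in Lmx1b-/- and rose as well (log2 fold change 0.50, adjusted p = 0.00126). The other 4 subunits that rose were Eif3d, Eif3j1, Eif3j2 and Eif3c, by 0.35 to 0.45 on the log2 scale. Eif3j1 and Eif3j2 are near-identical copies whose reads could be split between them. The call of Eif3c was lost when any of the 9 libraries except Lmx1b+/- 2 was left out (adjusted p up to 0.212, without Lmx1b+/- 1), with log2 fold changes of 0.228 to 0.416 in those fits.

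The 3 subunits that did not pass were Eif3a, Eif3b and Eif3f. Eif3a, the longest subunit and the backbone on which the complex is assembled, was at 203, 282 and 279 CPM in WT, 296, 226 and 284 CPM in Lmx1b+/- and 270.0, 328 and 279 CPM in Lmx1b-/-, and the genotypes overlapped (log2 fold change 0.075, adjusted p = 0.724). Eif3b, with a coding sequence of 2409 nt against 2733 nt in the called Eif3c, had a log2 fold change of 0.038 (adjusted p = 0.782). Eif3f, a short subunit, had a log2 fold change of 0.20 (adjusted p = 0.321). With the library total as the scaling these 3 were below 0, at -0.19, -0.214 and -0.0243. Subunits of the same complex thus differed in how their mRNAs moved. Within each library, the ratio of Eif3e to Eif3a in RPKM (counts scaled by gene length and by the library total) was 0.358, 0.275 and 0.3 in WT, 0.626, 0.744 and 0.742 in Lmx1b+/- and 0.347, 0.293 and 0.325 in Lmx1b-/-. The Lmx1b+/- mean of 0.704 ± 0.0676 lay above the WT mean of 0.311 ± 0.0426 and the Lmx1b-/- mean of 0.322 ± 0.0272 (SD, n = 3 each) without overlap (exact permutation test, p = 0.1 for each, the smallest possible). The ratio of Eif3k to Eif3a was 1.43 ± 0.0839 in Lmx1b+/-, 0.751 ± 0.168 in WT and 0.685 ± 0.0695 in Lmx1b-/-, with the same lack of overlap and the same p. Such a ratio does not depend on the scaling of the library. It can still carry the trend with gene length described below. The annotated transcripts of Eif3k (774 nt) and Eif3e (1506 nt) are shorter than that of Eif3a (5125 nt). How often ratios of other short and long genes separate in this way was not tested.

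**Figure D2:**
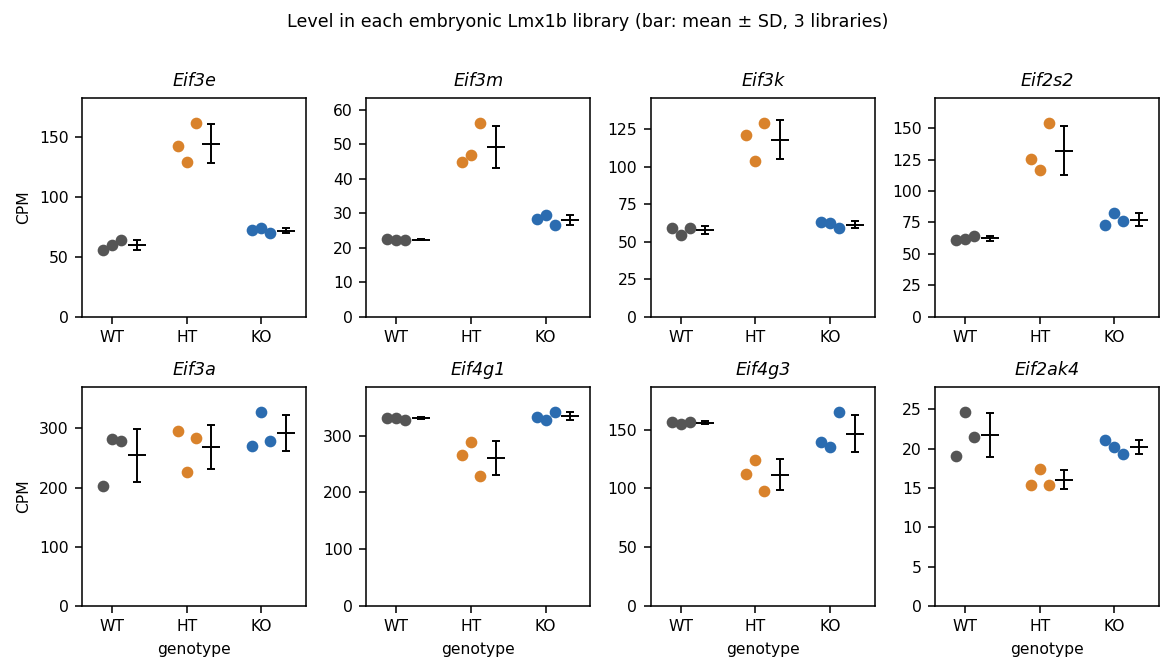
CPM of 8 members in each embryonic library by genotype, WT, Lmx1b+/- (HT) and Lmx1b-/- (KO), as points with the mean and SD of 3 libraries beside them. Eif3e, Eif3m, Eif3k and Eif2s2 are higher in every HT library than in any WT or KO library, Eif3a overlaps between genotypes, and Eif4g1, Eif4g3 and Eif2ak4 are lower in HT.

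Of the 4 genes of the eIF2 complex, Eif2s1 and Eif2s2 rose in Lmx1b+/-. Eif2s2, the β subunit, which the study also placed among the genes of its Lmx1b network, was at 60.6, 61.9 and 64.1 CPM in WT, 125, 117 and 154 CPM in Lmx1b+/- and 73.2, 82.6 and 75.9 CPM in Lmx1b-/-. The Lmx1b+/- libraries lay above both other groups (log2 fold change 1.09, SE 0.11, adjusted p = 1.29e-05). Eif2s1, the α subunit that the stress kinases phosphorylate, was at 40.1, 45.5 and 44.2 CPM in WT, 65.1, 64.2 and 84.5 CPM in Lmx1b+/- and 47.3, 53.3 and 47.5 CPM in Lmx1b-/-, again highest in the 3 Lmx1b+/- libraries (log2 fold change 0.72, SE 0.12, adjusted p = 3.82e-04). Eif2a, a separate factor that can deliver initiator tRNA on its own, was at 28.4, 31.8 and 30.2 CPM in WT, 54.8, 48.2 and 62.5 CPM in Lmx1b+/- and 35.6, 36.7 and 34.6 CPM in Lmx1b-/- and rose (log2 fold change 0.87, SE 0.10, adjusted p = 5.10e-05), whereas Eif2d, another such factor, had a log2 fold change of 0.18 (adjusted p = 0.212).

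The γ subunit of eIF2 has an X-linked gene, Eif2s3x, and a Y-linked one, Eif2s3y, and their levels varied between libraries of 1 genotype. Eif2s3x was at 101, 141 and 104 CPM in WT, 139, 106 and 205 CPM in Lmx1b+/- and 109.5, 178 and 158 CPM in Lmx1b-/-. Counts of Eif2s3y were 602, 51 and 1167 in WT, 762, 1052 and 75 in Lmx1b+/- and 1012, 34 and 1 in Lmx1b-/-. Each genotype thus held libraries with many and with few counts of Eif2s3y. In the newborn libraries Eif2s3x was at 111, 99.8 and 66.8 CPM in WT and 135, 129 and 118 CPM in the libraries labelled AMPKα2-/-. Eif2s3y had 4, 0 and 368 counts in WT and 0, 0 and 3 in the libraries labelled AMPKα2-/-. The 3 counts lay in the shallow library AMPKα2-/- 3, where they make 9.07 CPM. Neither gene passed the test between the embryonic genotypes (Eif2s3x log2 fold change 0.38, adjusted p = 0.212 for Lmx1b+/- against WT). In the newborn libraries Eif2s3x did not pass (log2 fold change 0.51, adjusted p = 0.0924), and Eif2s3y had too few counts for a test. Since the sex of the animals was not given and the libraries of a genotype were mixed in Eif2s3y, no comparison was made by it. The X-linked Xist was at 1270 CPM in embryonic WT 2, 725 in Lmx1b+/- 3 and 1054 and 1038 in Lmx1b-/- 2 and 3. In the other embryonic libraries it was at 2.13 to 36.2 CPM. In newborn WT 3 and AMPKα2-/- 3 it was at 0.817 and 3.02 CPM, and at 181 to 316 CPM in the rest. By these genes the embryonic genotypes were not mixed alike, and the part of this in the result was not tested.

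Of the 5 subunits of eIF2B, the exchange factor whose mutations cause vanishing white matter disease, 3 rose in Lmx1b+/- and none fell. Eif2b3 was at 11.1, 11.3 and 11.6 CPM in WT, 17.3, 17.3 and 20.3 CPM in Lmx1b+/- and 13.4, 13.5 and 12.9 CPM in Lmx1b-/- and was highest in the Lmx1b+/- libraries (log2 fold change 0.69, SE 0.11, adjusted p = 4.19e-04). Eif2b5, the catalytic subunit and the most abundant of the 5 per length, was at 53.0, 58.6 and 51.1 CPM in WT, 69.9, 62.7 and 64.7 CPM in Lmx1b+/- and 59.2, 63.5 and 64.4 CPM in Lmx1b-/-. The rise of Eif2b5 was small (log2 fold change 0.28, SE 0.09, adjusted p = 0.0276), and it was lost without WT 1 (adjusted p = 0.0687), without WT 3 (adjusted p = 0.098) and without Lmx1b+/- 1 (adjusted p = 0.114). Eif2b2 rose by 0.33 on the log2 scale (adjusted p = 0.0179), a call that was lost without WT 1 (adjusted p = 0.0553) and without WT 3 (adjusted p = 0.0572). Eif2b1 and Eif2b4 did not pass, with log2 fold changes of 0.39 and 0.13.

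The 4 kinases of eIF2α had log2 fold changes below 0, from -0.437 to -0.0977, and 1 of them fell. This was Eif2ak4, which encodes GCN2, the sensor of amino acid shortage, at 19.1, 24.7 and 21.4 CPM in WT, 15.3, 17.5 and 15.3 CPM in Lmx1b+/- and 21.1, 20.3 and 19.4 CPM in Lmx1b-/-. Its Lmx1b+/- values lay below all WT and Lmx1b-/- values (log2 fold change -0.44, SE 0.12, adjusted p = 0.0114), and the call was lost without WT 2 (adjusted p = 0.0514). Eif2ak3, which encodes the endoplasmic reticulum sensor PERK, had a log2 fold change of -0.31 (adjusted p = 0.0841). The heme-regulated kinase gene Eif2ak1, the most abundant of the 4 per length, was at 42.0, 49.8 and 45.8 CPM in WT, 44.5, 43.4 and 40.7 CPM in Lmx1b+/- and 40.7, 47.3 and 43.0 CPM in Lmx1b-/- and overlapped between the genotypes. The interferon-induced Eif2ak2 (PKR) had a log2 fold change of -0.30 (adjusted p = 0.265).

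In the eIF4F complex and its helpers, 3 of 7 genes rose and 2 fell in Lmx1b+/-. Eif4a1, the main helicase of dividing cells, was at 229.6, 230.4 and 264 CPM in WT, 420.1, 378 and 480.1 CPM in Lmx1b+/- and 269, 290.1 and 265 CPM in Lmx1b-/-, and the 3 Lmx1b+/- libraries were the highest (log2 fold change 0.82, SE 0.12, adjusted p = 1.45e-04). Its value is uncertain, since its pseudogene Eif4a-ps4 alone had 125 to 249.9 CPM in these libraries. Eif4a2, the helicase paralog that is high in neurons, was at 275, 244 and 277 CPM in WT, 362, 379.8 and 439 CPM in Lmx1b+/- and 308, 343 and 325 CPM in Lmx1b-/- and rose too (log2 fold change 0.57, SE 0.11, adjusted p = 0.00142). Eif4e, which binds the cap, rose by 0.45 on the log2 scale (adjusted p = 0.00711). The helicase cofactors Eif4b and Eif4h had log2 fold changes of 0.19 and 0.13 and did not pass.

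The scaffolds moved the other way. Eif4g1 was at 332, 332 and 328 CPM in WT, 266, 288 and 228 CPM in Lmx1b+/- and 333, 328 and 342 CPM in Lmx1b-/-, and each Lmx1b+/- library lay below every other. The fall of Eif4g1 (log2 fold change -0.34, SE 0.11, adjusted p = 0.0223) was lost without WT 1 (adjusted p = 0.0526), without WT 3 (adjusted p = 0.0611) and without Lmx1b+/- 3 (adjusted p = 0.075). Eif4g3, its scaffold paralog, was at 157, 155 and 156 CPM in WT, 113, 125 and 97.9 CPM in Lmx1b+/- and 139, 136 and 165 CPM in Lmx1b-/-, also lowest in Lmx1b+/-. Its fall (log2 fold change -0.48, SE 0.11, adjusted p = 0.00423) passed the test whichever of the 9 libraries was dropped. Eif4g2, which encodes DAP5, an eIF4G relative that lacks the binding site for eIF4E and the most abundant member per length, was at 1445, 1396 and 1487 CPM in WT, 1551, 1559 and 1697 CPM in Lmx1b+/- and 1441, 1552 and 1537 CPM in Lmx1b-/-. It had a log2 fold change of 0.15 (adjusted p = 0.331) and did not pass. The ratio of Eif4g2 to Eif4g1 in RPKM was 4.47 ± 0.769 in Lmx1b+/-, 3.13 ± 0.115 in WT and 3.25 ± 0.146 in Lmx1b-/-, with the Lmx1b+/- libraries above both other groups (exact permutation test, p = 0.1 for each, the smallest possible).

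The 4E-binding regulators hold eIF4E away from the scaffolds. Eif4ebp2, the form that prevails in brain, was at 98.6, 69.8 and 77.7 CPM in WT, 56.9, 69.2 and 48.3 CPM in Lmx1b+/- and 72.0, 65.1 and 69.4 CPM in Lmx1b-/-. The Lmx1b+/- libraries lay below the WT libraries and overlapped those of Lmx1b-/-. The fall (log2 fold change -0.50, SE 0.14, adjusted p = 0.015) was lost without WT 1 (adjusted p = 0.0771) and without Lmx1b+/- 3 (adjusted p = 0.0714). Eif4ebp1, at 2.29, 1.73 and 2.07 CPM in WT, 2.64, 3.55 and 2.58 CPM in Lmx1b+/- and 2.32, 2.05 and 2.17 CPM in Lmx1b-/-, and at 0.842 RPKM on average over the 15 libraries against 10.1 RPKM for Eif4ebp2, was the scarcer of the pair. It had a log2 fold change of 0.52 (adjusted p = 0.0598), in the other direction and outside the threshold. Eif4enif1, which carries eIF4E into the nucleus, had a log2 fold change of -0.18 (adjusted p = 0.143). The ratio of Eif4ebp2 to Eif4e in RPKM was 1.32, 0.902 and 0.906 in WT, 0.544, 0.732 and 0.387 in Lmx1b+/- and 0.881, 0.705 and 0.826 in Lmx1b-/-. Both mutant groups lay below WT without overlap (exact permutation test, p = 0.1 for each, the smallest possible) and overlapped each other (p = 0.2). Among the relatives of eIF4 factors, Eif4a3, a core protein of the exon junction, Eif4e2 and Eif4e3 did not pass, with log2 fold changes of 0.26, -0.064 and -0.35.

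Of the 7 genes for scanning and start codon selection, 5 rose. Eif1, which keeps the scanning ribosome open until the start codon is met, was at 66.1, 48.9 and 58.9 CPM in WT, 72.4, 71.6 and 67.3 CPM in Lmx1b+/- and 60.9, 64.1 and 64.8 CPM in Lmx1b-/-, with all Lmx1b+/- libraries above WT but just outside the threshold (log2 fold change 0.28, adjusted p = 0.0533). Its copy Eif1b rose (log2 fold change 0.41, adjusted p = 0.0065), and reads could be split between the pair. Eif1a was at 44.3, 39.3 and 44.6 CPM in WT, 62.1, 63.8 and 83.7 CPM in Lmx1b+/- and 51.5, 55.9 and 46.7 CPM in Lmx1b-/- and rose most of the 7 (log2 fold change 0.71, SE 0.12, adjusted p = 6.37e-04). Eif1ax, Eif1ad and Eif5, the GTPase activator of eIF2, rose by 0.43, 0.47 and 0.30 on the log2 scale, and Eif5b, the GTPase that joins the ribosomal subunits, had a log2 fold change of 0.24 (adjusted p = 0.136). The call of Eif1ad was lost without WT 2 (adjusted p = 0.0539) and that of Eif5 without Lmx1b+/- 3 (adjusted p = 0.063).

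Eif5a, the factor with the hypusine residue that also serves elongation, was at 173, 175 and 176 CPM in WT, 219, 224 and 233 CPM in Lmx1b+/- and 161, 172 and 162 CPM in Lmx1b-/-. It was highest in Lmx1b+/- (log2 fold change 0.37, SE 0.087, adjusted p = 0.00496). Eif5a2 and Eif6, which holds the large ribosomal subunit apart from the small one, rose by 0.42 and 0.35 on the log2 scale. Both calls were weak. That of Eif5a2 was lost without WT 1, WT 3, Lmx1b+/- 3 or any Lmx1b-/- library (adjusted p up to 0.252, without Lmx1b+/- 3). That of Eif6 was lost without WT 1, WT 3, Lmx1b+/- 1 or Lmx1b-/- 2 (adjusted p up to 0.14, without Lmx1b+/- 1).

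In Lmx1b-/- brainstem, which lacks both copies of the gene, 0 of the 53 members passed the test against WT, and 4 of all genes did (0.0184%). At an unadjusted p under 0.05 there were 7 members (13.2%), against 8.09% of all genes, and DESeq2 called 0 members. In 18 members all 3 Lmx1b-/- libraries lay above all WT libraries and in 2 below, against 11.9% and 6.09% of all genes. The median log2 fold change of the members was 0.107, against 0.0101 over all genes. Eif3e had a log2 fold change of 0.26 (SE 0.10), Eif2s2 of 0.31 (SE 0.11) and Eif3k of 0.093 (SE 0.10). For Eif4g1 it was 0.017 (SE 0.11). This comparison and that of Lmx1b+/- share the WT libraries.

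The direct comparison of Lmx1b-/- with Lmx1b+/-, which shares the Lmx1b+/- libraries with the first, gave 2 members higher and 19 lower in Lmx1b-/-, against 11.5% and 14.0% of all genes. At an unadjusted p under 0.05 there were 27 members, against 36.8% of all genes. The largest differences were those of Eif3e (log2 fold change -1.01, SE 0.10, adjusted p = 4.13e-05), Eif3k (log2 fold change -0.94, SE 0.10, adjusted p = 4.42e-05) and Eif3m (log2 fold change -0.81, SE 0.10, adjusted p = 1.43e-04). Eif2s2 was lower as well (log2 fold change -0.77, SE 0.11, adjusted p = 2.77e-04), as were 8 of the 14 eIF3 subunits in all. The 2 that were higher in Lmx1b-/- were Eif4g1 (log2 fold change 0.36, adjusted p = 0.0248) and Eif4g3 (log2 fold change 0.39, adjusted p = 0.0192). Both calls lay near the threshold. Eif4g1 was not called when WT 3 or any Lmx1b+/- or Lmx1b-/- library other than Lmx1b+/- 2 was left out (adjusted p up to 0.0878), although its log2 fold change stayed between 0.27 and 0.371 in those fits. Eif4g3 was not called without Lmx1b+/- 3 (0.306 on the log2 scale, adjusted p = 0.0738) or Lmx1b-/- 3 (0.299, adjusted p = 0.111). With the library total as the scaling, 4 members were higher and 6 lower, with the median of all genes at 0.223 in place of 0.0222. Eif3e, with means of 60.1 ± 4.26 CPM in WT, 145 ± 16.4 CPM in Lmx1b+/- and 71.9 ± 2.07 CPM in Lmx1b-/- (SD, n = 3 each), was thus highest in the libraries labelled Lmx1b+/-.

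Other properties of the Lmx1b+/- libraries differed from WT as well. Transcripts of 7 erythroid markers, globins among them, rose in Lmx1b+/-, where they summed to 3548 to 7514 CPM, against 509 to 1248 CPM in WT and 1060 to 2380 CPM in Lmx1b-/-. The part of these cells in the result was not tested. The share of counts on mitochondrially encoded genes was 9.58% to 14.7% in Lmx1b+/-, 5.57% to 6.74% in WT and 7.23% to 7.98% in Lmx1b-/-. Among markers of other cells, 2 of 8 for dividing cells rose, 3 of 7 for cerebellar granule cells fell, and of 9 for skeletal muscle 2 rose and 1 fell. Of the 9 hindbrain markers, 4 Hox genes rose and Slc6a5 fell, with summed levels of 131 to 175 CPM against 112 to 233 CPM in WT, and of 8 forebrain markers 1 rose (53.6 to 79.9 CPM against 40.2 to 55.2 CPM). In Lmx1b-/- against Lmx1b+/-, all 7 erythroid markers, 3 of 8 for dividing cells, 3 of 9 for skeletal muscle and 2 of 9 for hindbrain were lower, while 5 of 8 for forebrain, 1 of 9 for hindbrain and 1 of 7 for cerebellar granule cells were higher. Choroid plexus markers spanned 86.6 to 1668 CPM within Lmx1b+/-, and 0 of 7 passed. Within each Lmx1b+/- library, the log2 level of a gene relative to the mean of all libraries was also related to gene length over all genes, with Spearman coefficients from -0.392 to -0.354, against 0.255 to 0.3 in WT and 0.203 to 0.286 in Lmx1b-/-.

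Because of this relation, the short members were set against the long ones. By coding length, the 18 shortest members (up to 925 nt) were compared with the 18 longest (over 1611 nt). In Lmx1b+/- against WT, the median log2 fold change of the short members minus that of the long ones was 0.278, and over all genes, split at the same limits, it was 0.566. With the gene length that the RPKM values imply, the differences were 0.217 and 0.502. Across the members, Spearman's coefficient between fold change and coding length was -0.388, and over all genes -0.458, as a description of genes that share the same libraries. With the implied length the coefficients were -0.294 and -0.407. With the length of the annotated transcript (the one with the longest coding sequence) they were -0.584 and -0.449, and in Lmx1b-/- against Lmx1b+/- 0.696 and 0.457. Short and long members thus differed in the same direction as short and long genes at large, less so by coding or implied length and more so by transcript length. Fold change was related to transcript GC content too, at -0.319 for members and -0.315 over all genes. In Lmx1b-/- against WT these were -0.509 and -0.308, against 0.0189 and -0.163 by implied length. The level in single libraries had coefficients with GC of -0.0124 to 0.504 in WT and -0.405 to -0.0164 in Lmx1b+/-. In Lmx1b-/- they were -0.249 to 0.28. No GC trend was removed, and its part was not tested.

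By coding length, the shortest members did not rise most. Eif1 and Eif1b, with coding sequences of 339 nt, Eif1ax with 432 nt, Eif5a2 with 459 nt and Eif5a with 462 nt had log2 fold changes from 0.28 to 0.43. Eif4ebp1, with 351 nt, had a log2 fold change of 0.52 (adjusted p = 0.0598), and Eif4ebp2, with 360 nt, fell. The members with the 4 largest rises had coding lengths from 654 nt (Eif3k) and 993 nt (Eif2s2) to 1122 nt (Eif3m) and 1335 nt (Eif3e). By transcript length, the order was another. The 7 shortest transcripts of tested members, Eif3k (774 nt), Eif1b (1035 nt), Eif3g (1101 nt), Eif3i (1123 nt), Eif4a2 (1227 nt), Eif3m (1283 nt) and Eif3h (1295 nt), all rose, by 0.41 to 1.14 on the log2 scale. Eif1, the next by transcript length (1322 nt), was not called (adjusted p = 0.0533). The place of Eif4a2 is uncertain, since its annotated transcript held little beyond a coding sequence of 1224 nt and its implied length was 5338 nt. At the long end of the coding lengths, Eif4g1 (4800 nt), Eif2ak4 (4944 nt) and Eif4g3 (5286 nt) fell, while Eif3a (4032 nt), Eif5b (3648 nt) and Eif4g2 (2718 nt) had log2 fold changes of 0.075, 0.24 and 0.15. When the trend with length over all genes was removed from each library, 26 members rose and 1 fell. Of the 28 that had risen, 23 were still called, and of the 4 that had fallen, 0 were. The falls of Eif4g1 (log2 fold change -0.133, adjusted p = 0.345), Eif4g3 (-0.184, adjusted p = 0.217), Eif2ak4 (-0.223, adjusted p = 0.151) and Eif4ebp2 (-0.337, adjusted p = 0.0695) did not pass without that trend. The trend was fitted on the implied length. The short members minus the long ones then came to -0.114 by implied length (-0.0143 over all genes) and stayed above 0 at 0.0995 by coding length (0.307 over all genes).

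**Figure D3:**
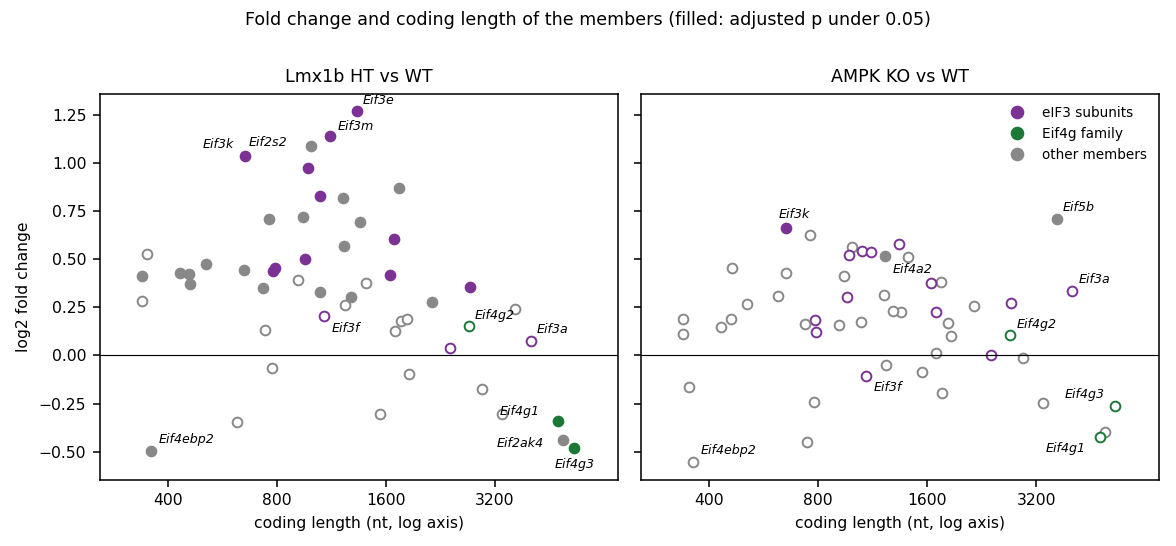
Log2 fold change of each tested member except Eif2s3y against its coding length in nt (log axis), for Lmx1b+/- against WT on the left and the libraries labelled AMPKα2-/- against WT on the right, with eIF3 subunits and Eif4g genes in their own colors and filled points for adjusted p under 0.05. On the left, the rises peak between 654 nt and 1335 nt and the Eif4g1 and Eif4g3 points lie below 0 at 4800 nt and 5286 nt, and on the right only 3 points are filled.

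Promoter sequence was compared as well, since many genes of the translation machinery start at GC-rich promoters with sites for ETS factors. A window of 250 bases before the annotated start was found in the RefSeq promoter table (GRCm38.p6) for 44 of the 56 members. Eif1a, Eif2b3, Eif3e, Eif3h, Eif3i, Eif3j2 and Eif6, which rose in Lmx1b+/-, had no window. Eif4g2, Eif4e3, Eif4ebp1, Eif4ebp3 and Eif4e1b had none either. Some genes have more than 1 window, up to 6 for Eif5a, and a gene was counted when any of its windows matched. The 7 bases CCGGAAG, the core bound by ETS factors, were sought on either strand (CTTCCGG on the other). They were present in 12 of the 44 members (27.3%) and in 7.83% of the 27025 genes of the table. The latter include genes that were not tested here. The 12 were Eif1ad, Eif1ax, Eif1b, Eif3c, Eif3d, Eif3g, Eif3l, Eif3m, Eif4e2, Eif4ebp2, Eif5a and Eif5a2, and 10 of them were among the 21 members of the table that rose in Lmx1b+/-. Over all genes of the table that were tested, the core was in 21.0% of those that rose, 9.73% of those that fell and 12.4% of the rest. A match is a string of letters and no evidence of binding. The sequences shown are the 100 bases before the start, 5′ to 3′ on the gene's strand, for members that rose with and without the core and for 1 that fell, with the core in capitals on whichever strand it lies.
Eif3m (chr2:105017028-105017127, minus strand): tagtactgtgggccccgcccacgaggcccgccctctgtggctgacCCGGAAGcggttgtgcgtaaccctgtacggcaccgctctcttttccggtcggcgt
Eif3l (chr15:79075123-79075222, plus strand): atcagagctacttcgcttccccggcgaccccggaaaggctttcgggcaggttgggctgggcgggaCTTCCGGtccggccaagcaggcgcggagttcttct
Eif3g (chr9:20898591-20898690, minus strand): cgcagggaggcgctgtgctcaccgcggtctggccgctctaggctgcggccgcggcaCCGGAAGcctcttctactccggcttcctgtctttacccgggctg
Eif3k (chr7:28981889-28981988, minus strand): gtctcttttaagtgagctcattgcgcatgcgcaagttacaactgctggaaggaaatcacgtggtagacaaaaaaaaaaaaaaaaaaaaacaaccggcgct
Eif2s2 (chr2:154892907-154893006, minus strand): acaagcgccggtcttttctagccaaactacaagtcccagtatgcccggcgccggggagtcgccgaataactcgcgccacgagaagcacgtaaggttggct
Eif4g1 (chr16:20672627-20672726, plus strand): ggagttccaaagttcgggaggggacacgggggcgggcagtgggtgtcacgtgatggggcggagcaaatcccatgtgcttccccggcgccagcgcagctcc

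Eif3m, Eif3l and Eif3g carry the core in these windows and Eif3k, Eif2s2 and Eif4g1 do not, although Eif3k and Eif2s2 rose too, by 1.04 and 1.09 on the log2 scale. The core of the binding site of homeodomain factors such as Lmx1b, TAATTA, was in 0 of the 44 members and in 5.65% of all genes of the table. At that share, few matches would be met in 44 genes. The study searched a wider region on both sides of the start for Lmx1b motifs, so this count is no test of its network. The sequence TATAAA of the TATA box was in 4 (9.09%, against 14.3%) and CCAAT in 14 (31.8%, against 37.5%). A start base of C followed by 4 pyrimidines, the mark of mRNAs under strong mTORC1 control, was annotated for 3 (6.82%, against 3.01%), which were Eif2c5, Eif3f and Eif2s3x. The start of Eif3f (chr7:108934415, plus strand) reads CTCTCTTTCTCggca and that of Eif2s3x (chrX:94212651, minus strand) reads CTTTTCTCTCCgagc, with the pyrimidine run in capitals. Neither gene was called in Lmx1b+/-. The match rests on 1 annotated start base, and members without a window, Eif3e, Eif3h and Eif3i among them, were not examined.

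In the newborn libraries, 3 of the 52 members tested rose in those labelled AMPKα2-/- and 0 fell. The 3 were Eif5b, Eif3k and Eif4a2. Of all 17397 genes 8.94% passed, with 3.77% that rose and 5.17% that fell. At an unadjusted p under 0.05 there were 16 members (30.8%), against 24.6% of all genes. The median log2 fold change of the members was 0.187, against -0.0056 over all genes. With the library total as the scaling, 0 members rose and 3 fell, and the median of all genes moved to -0.183, so the direction of the count depended on the scaling, while the members' median minus that of all genes was 0.193 with TMM and 0.202 with the library total. With TMM, the members summed to 4436, 3986 and 4099 CPM in WT and to 4937, 4845 and 4611 CPM in the libraries labelled AMPKα2-/-. The latter all lay above WT with this scaling. The TMM factors were 1.017, 1.034 and 1.111 in WT and 0.975, 0.89 and 0.987 in the libraries labelled AMPKα2-/-. On the library total, the sums of the groups overlapped. The gene with the most counts took 10.82% to 16.92% of that total in WT. In the libraries labelled AMPKα2-/- it took 7.776% to 13.37%.

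Eif5b was at 63.3, 69.9 and 66.4 CPM in WT and 104, 111 and 106 CPM in the libraries labelled AMPKα2-/-. Its 2 groups did not overlap (log2 fold change 0.71, SE 0.17, adjusted p = 0.0112), and the call held whichever of the 6 libraries was dropped (adjusted p up to 0.0463). Eif3k was at 59.9, 59.9 and 41.5 CPM in WT and 70.0, 85.6 and 103 CPM in the libraries labelled AMPKα2-/-, again without overlap (log2 fold change 0.66, SE 0.20, adjusted p = 0.039). It was not called without WT 2 (adjusted p = 0.0605), WT 3 (adjusted p = 0.227), AMPKα2-/- 2 (adjusted p = 0.092) or AMPKα2-/- 3 (adjusted p = 0.109). Eif4a2 was at 471, 466 and 359 CPM in WT and 614, 623 and 604 CPM in the libraries labelled AMPKα2-/- and barely passed (log2 fold change 0.52, SE 0.16, adjusted p = 0.0485). Of the 6 fits on 5 libraries it was called in 1, the fit without WT 1, and the adjusted p rose to 0.177 without WT 3. Leaving out 1 library gave between 1 member that rose (without WT 3, AMPKα2-/- 2 or AMPKα2-/- 3) and 11 (without WT 1), with 2 that fell in the latter. With both shallow libraries left out, 6 genes and 0 members were called, on 2 libraries a group.

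Members that led in Lmx1b+/- were also described in the newborn libraries. Eif2s2 was at 42.3, 39.9 and 31.6 CPM in WT and 58.2, 54.3 and 48.4 CPM in the libraries labelled AMPKα2-/-. Its groups did not overlap, but the difference did not pass (log2 fold change 0.56, adjusted p = 0.0724). Eif3e had a log2 fold change of 0.58 (adjusted p = 0.114). Eif4g1 was at 183, 156 and 236 CPM in WT and 156, 145 and 133 CPM in the libraries labelled AMPKα2-/-, with all AMPKα2-/- libraries below WT and no call (log2 fold change -0.42, adjusted p = 0.125). Eif4ebp2 was at 48.3, 43.3 and 51.5 CPM in WT and 35.7, 33.4 and 24.2 CPM in the libraries labelled AMPKα2-/-, lower without overlap and outside the threshold (log2 fold change -0.56, adjusted p = 0.075). In all, 17 members were higher and 3 lower without overlap, against 13.9% and 12.7% of all genes. The ratio of Eif4ebp2 to Eif4e in RPKM was 0.388 ± 0.083 in the libraries labelled AMPKα2-/- and 0.809 ± 0.0903 in WT, and that of Eif4g2 to Eif4g1 was 3.04 ± 0.126 and 2.17 ± 0.248 (SD, n = 3 each). Neither ratio overlapped between the groups (exact permutation test, p = 0.1 for each, the smallest possible).

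**Figure D4:**
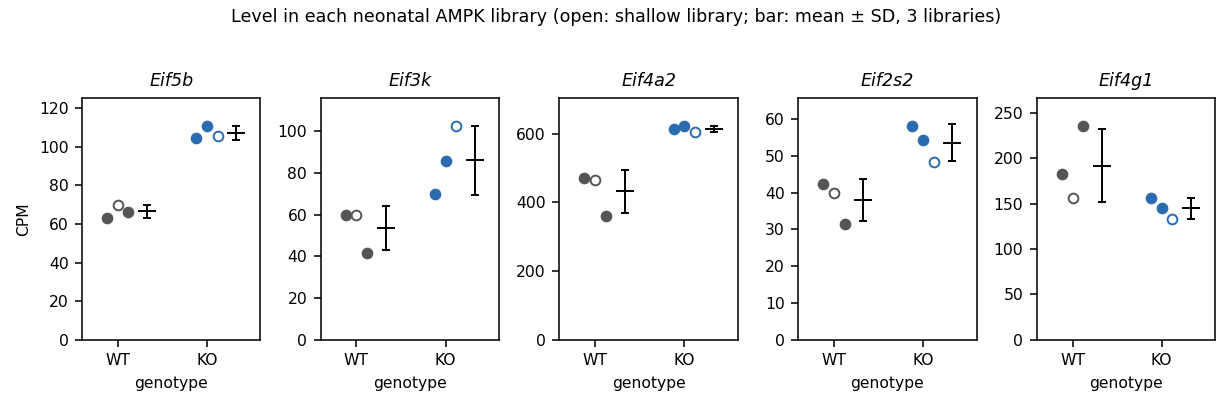
CPM of 5 members in each newborn library, WT and labelled AMPKα2-/- (KO), as points with the mean and SD of 3 libraries, and with open points for the shallow libraries WT 2 and KO 3. The 3 KO libraries lie above the WT libraries for Eif5b, Eif3k, Eif4a2 and Eif2s2 and below them for Eif4g1.

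Other members described above did not pass in the newborn libraries. Eif1 was at 104, 76.5 and 77.6 CPM in WT and 95.1, 96.8 and 93.7 CPM in those labelled AMPKα2-/-, with overlap. Eif3a, the long backbone of eIF3, was at 165, 186 and 159.9 CPM in WT and 215, 203 and 221 CPM in those labelled AMPKα2-/-, higher in each of the latter (log2 fold change 0.34, adjusted p = 0.191). Eif3h was at 78.9, 66.6 and 57.1 CPM in WT and 89.1, 106 and 103 CPM in those labelled AMPKα2-/-, also higher without overlap (log2 fold change 0.54, adjusted p = 0.0627). Eif5a behaved alike, at 135, 116 and 101 CPM in WT and 157, 155 and 178 CPM in those labelled AMPKα2-/- (log2 fold change 0.45, adjusted p = 0.0967). The large scaffold relatives overlapped between the groups. Eif4g2 was at 601, 492 and 619.8 CPM in WT and 689, 618 and 538 CPM in those labelled AMPKα2-/-, and Eif4g3 at 139, 233 and 169 CPM in WT and 144, 141 and 145 CPM in those labelled AMPKα2-/-. The kinases and the low regulators were hard to read at the depth of the shallow libraries. Eif2ak4 was at 16.3, 9.98 and 21.5 CPM in WT and 12.7, 15 and 12.1 CPM in those labelled AMPKα2-/-. Eif2ak1 was at 56.4, 26.6 and 53.8 CPM in WT and 49.0, 57.6 and 63.5 CPM in those labelled AMPKα2-/-. Eif4ebp1 was at 1.32, 0 and 2.04 CPM in WT and 1.45, 1.55 and 0 CPM in those labelled AMPKα2-/-, and each of its 2 zeros was in a shallow library, where a count of 0 allowed over 9 CPM. The factors around eIF2 overlapped as well. Eif2a was at 42.4, 20.0 and 30.3 CPM in WT and 54.0, 40.7 and 30.2 CPM in those labelled AMPKα2-/-, and Eif2b5 at 46.1, 53.2 and 39.7 CPM in WT and 50.5, 52.6 and 60.4 CPM in those labelled AMPKα2-/-. By role, the median log2 fold change was 0.513 for the 3 tested genes of eIF2, 0.319 for the 14 of eIF3, 0.166 for the 7 of eIF4F and its helpers and -0.167 for the 4 kinases.

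The newborn groups differed in other properties too. The mitochondrial share was 20.1% to 21.7% in the libraries labelled AMPKα2-/- and 10.4% to 13.9% in WT. All 6 tested skeletal muscle markers fell, from a sum of 13.3 to 801 CPM in WT to 7.6 to 12.4 CPM. Of the choroid plexus markers, 2 of 4 rose, from 9.98 to 18.8 CPM in sum to 36.9 to 133 CPM. Of the erythroid markers, 2 of 5 rose, and 2 of 7 cerebellar granule markers fell. The part of these cells in the result was not tested. Gene length was related to the level over all genes with coefficients of -0.339 to -0.147 in the libraries labelled AMPKα2-/- and of -0.0773, 0.192 and 0.285 in WT 1 to 3. The median of the short members minus that of the long ones by coding length was 0.0754 here, against 0.515 over all genes, and by implied length it was -0.00503 against 0.495. Spearman's coefficient with the fold change was -0.142 by coding length (-0.456 over all genes) and -0.413 by transcript length (-0.412 over all genes). By transcript GC content it was -0.33 (-0.354 over all genes). The level in single libraries had coefficients with GC of 0.108 to 0.253 in WT. In the libraries labelled AMPKα2-/- they were -0.223 to -0.13. Among the members that passed, Eif5b was long and Eif3k short.

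Levels per length (mean RPKM over the 15 libraries) ordered the members in the same unit. Eif4g2 was the highest at 113 RPKM, followed by Eif4a2 at 75.4, Eif5a at 70.7, Eif3h at 62.3, Eif3c at 51.3 and Eif4a1 at 51. Eif4g1 was at 35 RPKM and its paralog Eif4g3 at 13.1. Within eIF3, levels ran from 62.3 RPKM for Eif3h to 6.43 for Eif3j1, so that mRNAs of the same complex differed widely. The eIF2 kinases were low, from 8.29 RPKM for Eif2ak1 to 1.74 for Eif2ak2. These RPKM rest on the gene length of the tables and on reads that copies may share.

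The balance of paralogs differed between the experiments. The ratio of Eif4a2 to Eif4a1 in RPKM was 4.08, 5.98 and 4 in the newborn WT libraries and 0.971, 0.859 and 0.853 in the embryonic WT libraries. Over all genotypes it lay between 4 and 5.98 in the newborn and between 0.7 and 0.995 in the embryonic libraries. The ratio of Eif5a2 to Eif5a, the former a form with restricted expression, was 0.455, 0.432 and 0.741 in newborn and 0.0808, 0.0916 and 0.0737 in embryonic WT libraries, and the ranges over all genotypes, 0.401 to 0.741 and 0.0724 to 0.113, did not meet. Age, experiment and sequencing run cannot be told apart here, and the pseudogene Eif4a-ps4 was at 16.6 to 63.5 CPM in the newborn and 125 to 249.9 CPM in the embryonic libraries, so no test was made.

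**Figure D5:**
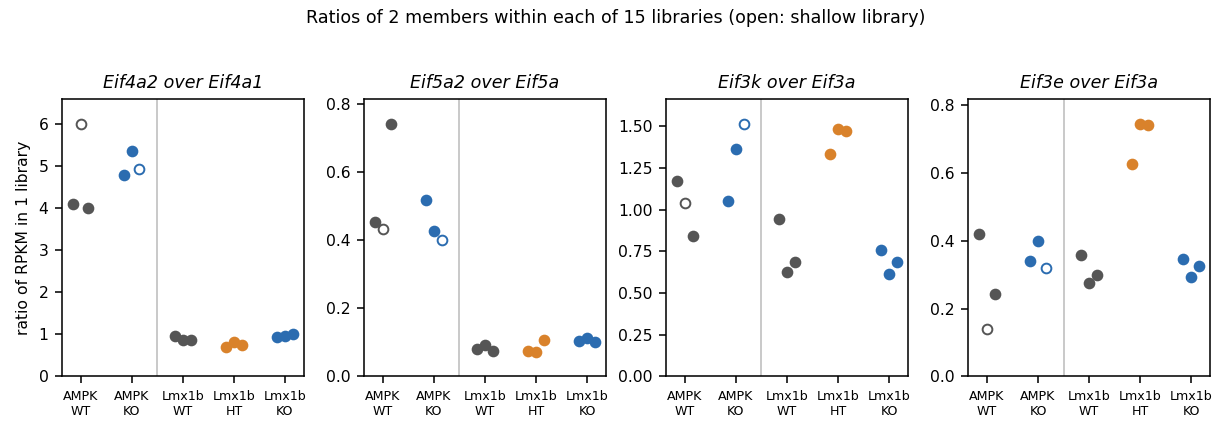
Ratio of the RPKM of 2 members within each of the 15 libraries, by experiment and genotype, with open points for the 2 shallow libraries. Eif4a2 over Eif4a1 and Eif5a2 over Eif5a separate the newborn from the embryonic libraries, and Eif3k over Eif3a and Eif3e over Eif3a are higher in Lmx1b+/- (HT) than in the other embryonic genotypes.

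Genes that work beside the initiation factors were counted in lists. These counts come from the main fit with TMM only. They were not repeated with the library total or without the length trend, and the part of gene length in them was not tested. In Lmx1b+/- against WT, where 19.4% of all genes rose and 17.3% fell, 7 of 21 partners of initiation rose and 2 fell. The smallest p-values belonged to Mcts1 (log2 fold change 0.91, SE 0.11, adjusted p = 6.74e-05) and Denr (0.66 on the log2 scale), which act together in reinitiation, to the poly(A)-binding protein inhibitor Paip2 (0.72) and to Larp1 (-0.55), which restrains mRNAs of the translation machinery. Of 14 elongation and termination factors, 6 rose and 3 fell, with Eef1b2 (log2 fold change 1.12, SE 0.12, adjusted p = 1.71e-05), Eef1e1 (0.99), Eef1g (0.68) and Eef1a1 (0.86) in front. Of 21 genes of mTORC1 signalling, 8 rose and 4 fell. Those that rose were led by Rps6 (log2 fold change 1.12, SE 0.13, adjusted p = 4.93e-05), the Ragulator subunits Lamtor4 (1.08) and Lamtor5 (1.14) and the GTPase Rheb (0.81), and those that fell were Mtor, Tsc1, Tsc2 and Rptor, with log2 fold changes from -0.63 to -0.45.

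Of 16 targets of the integrated stress response, the program set off by the eIF2 kinases, 2 rose and 3 fell, against the same 19.4% and 17.3% of all genes. Psat1 (log2 fold change 0.49, SE 0.10, adjusted p = 0.00211) and Slc7a11 (0.58) rose, while Vldlr (-0.43) and Trib3 (-0.88), which had at most 50 counts, fell. The list medians were 0.0205 for partners, 0.227 for elongation and termination, 0.236 for mTORC1 and 0.0526 for stress targets, against -0.031 over all genes. In Lmx1b-/- against Lmx1b+/-, the partners had 2 higher and 4 lower, elongation and termination 2 and 4, mTORC1 4 and 8, and the stress targets 3 and 2, where 11.5% of all genes were higher and 14.0% lower.

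In the libraries labelled AMPKα2-/-, where 3.77% of all genes rose and 5.17% fell, 1 of the 21 partners rose, Denr (log2 fold change 0.95, SE 0.19, adjusted p = 0.00431). Eef1a1 rose (0.57) and Eef1a2, the form of mature neurons and muscle, fell (log2 fold change -0.76, SE 0.17, adjusted p = 0.00952). Of the mTORC1 genes, 3 rose, Rps6 (0.72), Lamtor2 (0.80) and Lamtor5 (0.72), and of the stress targets 1, Slc7a11 (0.67). Skeletal muscle markers fell in the same libraries, and the share of Eef1a2 that comes from muscle was not tested.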

How the data were processed

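Brainstem poly(A) RNA was isolated with TRIzol, prepared with the NEXTflex Rapid Directional qRNA-Seq kit and sequenced on an Illumina HiSeq instrument. Per the study's methods and the submitters' processing notes, reads were aligned with HISAT2 in systemPipeR, and the notes name the GRCm39 build. The counter, the annotation, the use of strand and molecular indexes and the treatment of reads with several matches were not given in the sources used here. The authors deposited gene counts for both experiments, which are whole numbers without normalization, and RPKM made from them with the gene length and the library total. Both were used as deposited, with 0 columns of other samples. The column of newborn WT 3 has a suffix after its number, and that of embryonic WT 3 carries the number of its library name.

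Symbols were found for 51884 identifiers (90.7%). The members, roles, gene lists and tests were chosen with earlier results of these data known. The genes given in every library were those called (at most 12 of smallest p in each direction), 12 members chosen for their role and the highest RPKM of each role, and for lists the 4 smallest p-values. Counts were tested in R 4.3.3 with edgeR 4.0.16 (filterByExpr, TMM, quasi-likelihood F-test, 1 fit for the 6 newborn and 1 for the 9 embryonic libraries, genotype as the only term, Benjamini-Hochberg adjustment over all tested genes), and a call is an adjusted p under 0.05. CPM are counts over the TMM-scaled total, and the limit of a count of 0 is 3 counts of it. RPKM ratios were compared by two-sided exact permutation tests, unadjusted. Scripts were tested on simulated data. Of the hindbrain marker list, 1 planned gene is not reported here. Coding lengths come from GENCODE M21, promoters from RefSeq (GRCm38.p6), and no coordinates of the files' build are given. Same-numbered libraries did not deviate together in every pair of groups, so the main fit has no block. The alternatives were DESeq2 1.42.0, RLE and library-size scaling, all genes with any count, the replicate number as a block, removal of the length trend (lowess, span 0.3), only the 6 libraries compared, each library left out, both shallow libraries left out and, chosen after seeing the data, the split of short and long members by coding length.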

Additional observations from a re-analysis of the deposited data

How the results depend on the processing

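None of the 56 calls of members, each a gene in a comparison, reversed its direction under the alternatives run: 771 values kept their side of the threshold and 172 lost it. Members without a call had less stable signs. Of 21 in Lmx1b+/- against WT, 13 changed sign in at least 1 alternative, 9 of them with the library total, and the numbers were 18 of 32 in Lmx1b-/- against Lmx1b+/-, 12 of 53 in Lmx1b-/- against WT and 18 of 49 in the newborn comparison. Of the counts and medians, 277 stayed within the spread or within 1.5 times, 61 moved and 7 reversed. The newborn comparison is limited by its 2 shallow libraries, while the embryonic libraries were of like depth.

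For the libraries labelled AMPKα2-/- against WT, scaling by library size gave 0 members higher, 3 lower and a median of 0.0193. DESeq2 called 678 genes, and a filter on any count gave 1 member lower. Removing the length trend called 901 genes with a short-minus-long difference of -0.264, and 907 genes with -0.275 when the replicate block was added. Without both shallow libraries 6 genes and 0 members were called. Leaving out 1 library gave 548 to 2958 genes, 1 to 11 members higher and 0 to 2 lower.

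For Lmx1b-/- against WT, where 4 genes were called, 19 genes were called with library size, 36 with DESeq2, 13 with only the 6 libraries compared and 329 with any count, which also called 1 member lower. The short-minus-long difference was -0.0592 without the length trend, -0.0609 with the block as well and reversed to 0.0398 by coding length, to 0.06 without WT 1 and to 0.0295 without Lmx1b-/- 2. Over the fits that left out 1 library it ranged from -0.0516 to 0.06, and the genes called from 3 to 11.

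For Lmx1b+/- against WT, library size gave 10 members higher, 7 lower and a median of 0.107. Without the length trend 1 member was lower and the short-minus-long difference reversed to -0.114, while by coding length it was 0.0995. With the block as well 0 were lower and it was -0.117. By coding length it was 0.278. Leaving out 1 library gave 2 to 5 members lower and a difference of 0.19 to 0.303.

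For Lmx1b-/- against Lmx1b+/-, library size gave 4 members higher, 6 lower and a median of -0.0203. Without the length trend there were 3663 genes, 0 members higher, a median of -0.296 and a difference reversed to 0.0953 (-0.197 by coding length), and with the block as well 2844 genes, 0 members higher, -0.298 and 0.0934. Leaving out 1 library gave 3500 to 6054 genes, 0 to 3 members higher and medians of -0.308 to -0.19. The causes of these changes, other than fewer libraries or genes, were not tested.

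The numbers did not pair the libraries of all groups alike. Deviations of same-numbered embryonic libraries correlated at 0.0758, 0.148 and 0.0974 between WT and Lmx1b-/-. Differently numbered libraries of these groups were at -0.0952 to -0.01. Same-numbered Lmx1b+/- libraries were at -0.157 to -0.0526 with WT and at -0.177 to -0.133 with Lmx1b-/-. Lmx1b+/- 1, 2 and 3 correlated at 0.237, 0.232 and 0.215 with Lmx1b-/- 3, 1 and 2. Same-numbered newborn libraries were at 0.0476, -0.0883 and -0.121. The cause was not tested. With the replicate number as a block, edgeR called 1350 genes and 2 members higher in the newborn comparison, 5 genes and 0 members in Lmx1b-/- against WT, 24 members higher and 4 lower in Lmx1b+/- against WT, and 2 higher and 15 lower in Lmx1b-/- against Lmx1b+/-.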
